A study of Mus musculus with 16 samples.

Results

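The genes described here are 8 genes of white adipocytes, the lipid-storing cells of fat: Lep, Adipoq, Cfd, Retn, Plin1, Cidec, Lipe and Pck1. They were taken by symbol from the deposited table of 45777 genes, and genes with counts of 0 were kept. They were followed as a sign of host fat in the tumor samples, and Lep as the gene that carries the ob mutation. Lipe was counted in every tumor, whereas each of the other 7 genes had a count of 0 in at least 1 of the 16 tumors. Most of these 7 genes were high in obese tumors 1, 2 and 3 after etoposide (ETS) and in obese tumor 2 before therapy. Apart from Cfd, they were low or at 0 in the other 12 tumors, obese tumor 4 after ETS and obese tumor 1 before therapy included.

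The tumors were allografts of B16F10, a melanoma line from C57BL/6 mice, placed under the skin of 6-week-old hosts. Lean hosts were C57BL/6J mice and obese hosts were C57BL/6J-ob/ob mice, which lack functional leptin throughout the body. Tumors were taken either before therapy or after 5 daily injections of ETS at 20 mg per kg, a topoisomerase inhibitor that breaks DNA, and each of the 4 groups held 4 tumors. What is called an effect of ETS is the difference between these times of sampling, which also holds the days of growth between them. Treatment and time cannot be told apart. All tumors came from the same cell line, and the grafted cells come from mice without the ob allele, whatever the host. RNA of whole tumor tissue was sequenced, so that counts of a host gene rise with the number of host cells and with their RNA per cell, which cannot be told apart. Total counts lay between 47199949 and 61655287 per tumor. Markers of melanoma cells summed to 15388 to 38442 CPM, counts scaled to the same library size, in the 16 tumors, so that the labelled tissue carried its markers in all of them. Their level was not the same between hosts. Before therapy they summed to 24924 to 31544 CPM in lean and 15388 to 20530 CPM in obese tumors. After ETS they summed to 32953 to 38442 CPM in lean and 15937 to 37054 CPM in obese tumors.

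White adipocytes store triglyceride in a large droplet and secrete hormones. Leptin, the product of Lep, reports the size of fat stores to the brain and lowers food intake. Adiponectin, the product of Adipoq, raises fatty acid oxidation and insulin sensitivity in other tissues. Around the droplet, perilipin 1 gates the access of lipases, and the release of fatty acids from it runs through adipose triglyceride lipase and hormone-sensitive lipase. In ob/ob mice, a point change in the coding sequence of Lep gives a premature stop codon. The transcript is still made, and in the fat of these mice it is known to be abundant, whereas adipsin (Cfd) transcripts are known to be scarce. Counts per gene do not hold the changed base, so that the Lep counts given here are no check of a host's genotype.

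Because the adipocyte genes were high in the same tumors, the sequence around the transcription start is shown for 5 of them: Lep, Adipoq, the droplet genes Plin1 and Cidec, and Cfd, which was high in other tumors as well. The windows are 300 bases long, run 5′ to 3′ on the strand of the gene, and come from RefSeq on GRCm38.p6. They lie at chr6:29059971-29060270 on the plus strand (Lep), chr16:23146286-23146585 on the plus strand (Adipoq), chr7:79732727-79733026 on the minus strand (Plin1), chr6:113435711-113436010 on the minus strand (Cidec, the more upstream of its listed starts) and chr10:79890603-79890902 on the plus strand (Cfd). Capitals mark matches to the short motifs named after the sequences.
Lep: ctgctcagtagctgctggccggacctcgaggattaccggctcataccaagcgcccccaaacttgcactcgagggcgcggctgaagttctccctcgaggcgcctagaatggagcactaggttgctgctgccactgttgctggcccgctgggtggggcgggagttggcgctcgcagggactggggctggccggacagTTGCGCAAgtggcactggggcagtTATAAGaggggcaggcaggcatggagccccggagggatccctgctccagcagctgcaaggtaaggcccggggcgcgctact
Adipoq: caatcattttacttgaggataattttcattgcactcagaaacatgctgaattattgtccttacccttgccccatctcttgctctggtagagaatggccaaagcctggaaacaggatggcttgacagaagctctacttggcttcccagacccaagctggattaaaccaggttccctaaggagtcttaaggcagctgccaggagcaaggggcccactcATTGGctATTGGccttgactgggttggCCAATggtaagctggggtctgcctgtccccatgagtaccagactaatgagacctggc
Plin1: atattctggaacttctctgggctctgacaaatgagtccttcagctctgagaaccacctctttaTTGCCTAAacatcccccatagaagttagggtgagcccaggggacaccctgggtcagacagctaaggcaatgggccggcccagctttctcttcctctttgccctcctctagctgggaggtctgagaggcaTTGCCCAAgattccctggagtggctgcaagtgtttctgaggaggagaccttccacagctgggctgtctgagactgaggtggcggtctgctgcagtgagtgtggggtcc
Cidec: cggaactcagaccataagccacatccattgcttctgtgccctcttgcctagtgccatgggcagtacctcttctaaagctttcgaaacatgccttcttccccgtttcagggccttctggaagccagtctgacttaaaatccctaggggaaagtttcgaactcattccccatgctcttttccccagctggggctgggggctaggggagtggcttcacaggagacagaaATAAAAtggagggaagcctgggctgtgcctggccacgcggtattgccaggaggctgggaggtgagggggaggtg
Cfd: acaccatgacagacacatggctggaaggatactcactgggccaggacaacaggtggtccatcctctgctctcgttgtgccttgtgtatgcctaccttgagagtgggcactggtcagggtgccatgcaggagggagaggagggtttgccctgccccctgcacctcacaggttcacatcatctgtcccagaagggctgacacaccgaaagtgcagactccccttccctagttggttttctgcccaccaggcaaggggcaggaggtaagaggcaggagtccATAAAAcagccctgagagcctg

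The window of Lep holds TTGCGCAA, a palindromic site of C/EBP factors, with its start at -55 relative to the transcription start. Of 32851 mouse promoter windows of the same length, 60 (0.183%) hold this motif. The looser form TTNNGCAA, searched on both strands, contains the full site and is held by 10.8% of all windows. It matched in Lep and in Plin1, with the more upstream of the Plin1 matches at -187. Lep also holds TATAAG at -31, which 4.42% of windows hold on the given strand. Cidec holds ATAAAA at -24 and Cfd holds it after the start, at 29, and 11.1% of windows hold it on the given strand. Adipoq holds CCAAT 3 times on either strand, the most upstream at -34, and 37.4% of all windows hold that motif. TATAAA (8.32% of windows, given strand), TGACGTCA (1.79%), its core ACGTCA (7.51%) and AGGTCA (16.3%, all on both strands), a core of sites of nuclear receptors such as PPARG, have no match in the 5 windows. A match is a run of letters and not a site shown to be bound.

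Lep (chr6:29060221-29073876) encodes leptin. Before therapy, lean tumors 1 to 4 held 16, 18, 0 and 2 counts, and obese tumors 1 to 4 held 6, 537, 65 and 8. After ETS, all 4 lean tumors held 0 counts, whereas obese tumors 1 to 4 held 268, 277, 408 and 8. Lep was thus counted in all 8 obese tumors and in 3 of 8 lean tumors, and the obese tumors overlapped the lean tumors before therapy but not after ETS. In CPM scaled by TMM, the mean was 0.145 ± 0.149 (SD, n = 4) in lean and 2.98 ± 5.08 in obese tumors before therapy, and 4.25 ± 2.84 in obese tumors after ETS. The 0 counts of the lean tumors after ETS allow up to 3 counts over the group, or 0.0137 CPM.

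Adipoq (chr16:23146536-23157968) encodes adiponectin. Lean tumors held 28, 28, 2 and 13 counts before therapy and 27, 25, 0 and 6 after ETS. Obese tumors held 0, 266, 36 and 12 counts before therapy and 283, 264, 334 and 8 after ETS. The groups overlapped in each comparison, since obese tumor 1 before therapy and obese tumor 4 after ETS were as low as lean tumors. Mean levels were 0.285 ± 0.205 CPM in lean and 1.51 ± 2.50 CPM in obese tumors before therapy, and 0.265 ± 0.248 CPM in lean and 3.96 ± 2.55 CPM in obese tumors after ETS (SD, n = 4).

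Cfd (chr10:79890853-79892655) encodes adipsin, or complement factor D, a serine protease of the alternative complement pathway that fat cells secrete. Lean tumors held 155, 187, 6 and 20 counts before therapy and 76, 194, 0 and 0 after ETS. Obese tumors held 0, 84, 52 and 6 counts before therapy and 53, 241, 204 and 0 after ETS. Unlike Lep and Adipoq, Cfd reached its levels in lean tumors 1 and 2 of both time points as well, at 1.34 to 3.70 CPM, against 0.935 to 4.87 CPM in obese tumors 1 to 3 after ETS. Retn (chr8:3655770-3659818) encodes resistin, a hormone of mouse adipocytes. It was counted in lean tumor 1 before therapy (7 counts), in obese tumors 2, 3 and 4 before therapy (27, 7 and 3) and in obese tumors 1, 2 and 3 after ETS (30, 27 and 32), and was at 0 in the other 9 tumors.

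Plin1 (chr7:79721164-79732904) encodes perilipin 1, which coats the droplet. It was at 0 in 6 of 8 lean tumors, with 19 counts in lean tumor 1 before therapy and 11 in lean tumor 2 after ETS. Obese tumors held 3, 259, 50 and 12 counts before therapy and 388, 182, 345 and 0 after ETS. Cidec (chr6:113424634-113435760) encodes a protein that fuses droplets and enlarges them. Lean tumors held 39, 26, 0 and 0 counts before therapy and 17, 35, 0 and 0 after ETS, and obese tumors held 0, 542, 60 and 18 before therapy and 881, 519, 608 and 0 after ETS. Both droplet genes followed the same tumors as Adipoq, with 3.68 to 15.5 CPM in obese tumors 1 to 3 after ETS. The annotation lists Gm52871 as overlapping Cidec, and whether counting used the strand is not stated, so that the counts of Cidec could hold reads of that gene.

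Lipe (chr7:25379527-25398486) encodes hormone-sensitive lipase, which releases fatty acids from diglyceride and is made in many cell types beside adipocytes. Lean tumors held 417, 508, 382 and 391 counts before therapy and 219, 265, 229 and 205 after ETS. Obese tumors held 205, 604, 203 and 204 counts before therapy and 865, 517, 938 and 383 after ETS. The lean tumors after ETS were all below those before therapy, and the obese tumors after ETS were all above the lean tumors after ETS. Lipe overlaps 4732471J01Rik, with the same limit as for Cidec. Pck1 (chr2:173153073-173159274) encodes the cytosolic phosphoenolpyruvate carboxykinase, which in fat makes glycerol for triglyceride and in the liver glucose. It was at 0 in all 4 lean tumors after ETS and held 65, 6, 311 and 6 counts in obese tumors after ETS. Before therapy, the lean tumors had 12, 0, 0 and 7 counts of Pck1, and the obese tumors 0, 44, 35 and 0.

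**Figure D1:**
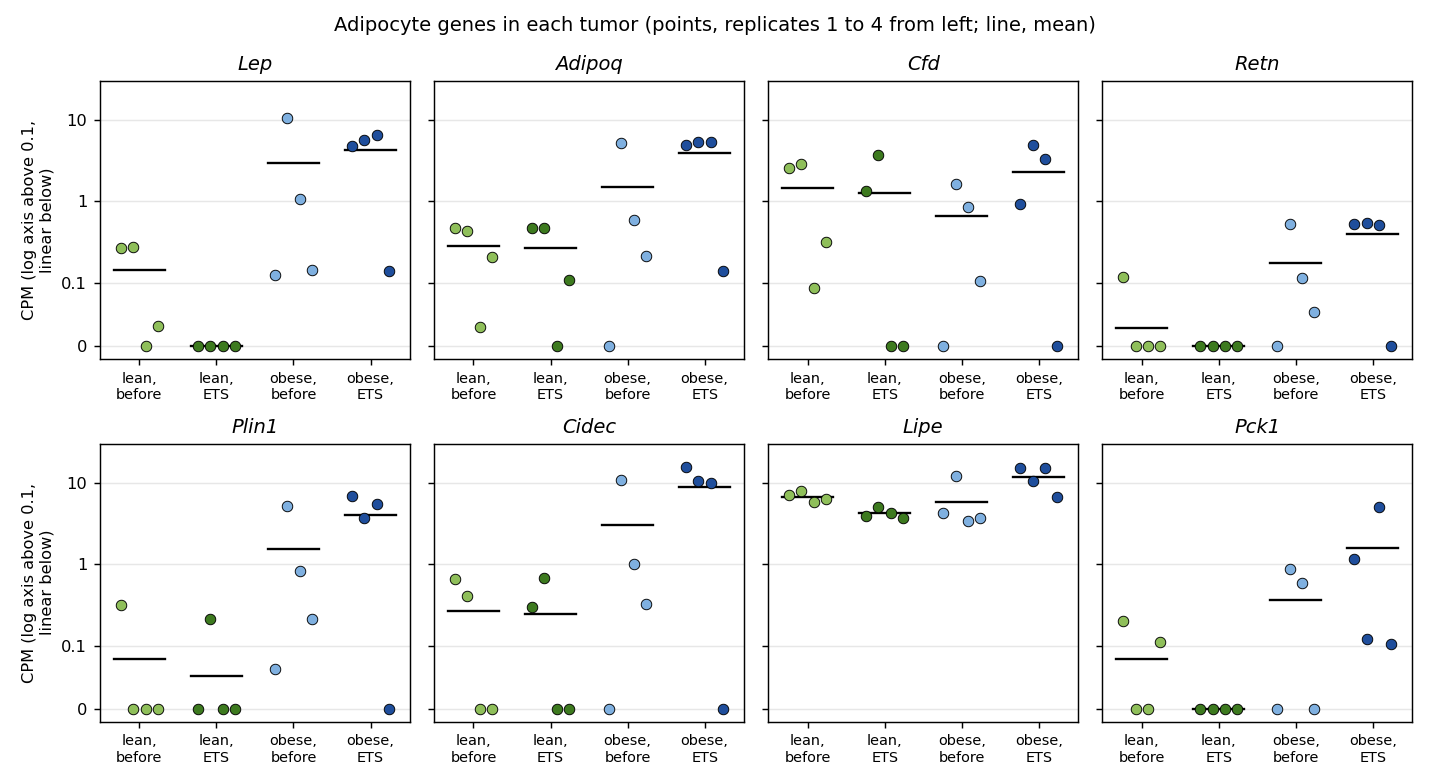
CPM of each of the 8 genes (vertical axis, logarithmic above 0.1 and linear below) in the 4 groups (horizontal axis), with a point for each tumor, tumors 1 to 4 from left to right, and a line at the mean. For genes other than Lipe, points of obese tumors after ETS form a cluster of 3 with tumor 4 apart for most genes, and the highest point before therapy in obese tumors is tumor 2 for every gene.

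Summed over the 7 genes other than Lipe, the 4 tumors named at the outset held 34.6 CPM (obese tumor 2 before therapy) and 34.7, 30.6 and 36.0 CPM (obese tumors 1, 2 and 3 after ETS). The sum in the other 12 tumors ranged from 0 CPM in lean tumor 3 after ETS to 5.06 CPM in obese tumor 3 before therapy. Obese tumor 4 after ETS held 0.382 CPM, or 22 counts for 7 genes, below lean tumors 1 and 2 before therapy (4.62 and 4.01 CPM). Lipe was at 10.4 to 15.3 CPM in the 4 high tumors and at 3.37 to 7.87 CPM in the other 12. Which tumors stand high was read from these values, and no test was made between tumors chosen in this way.

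**Figure D2:**
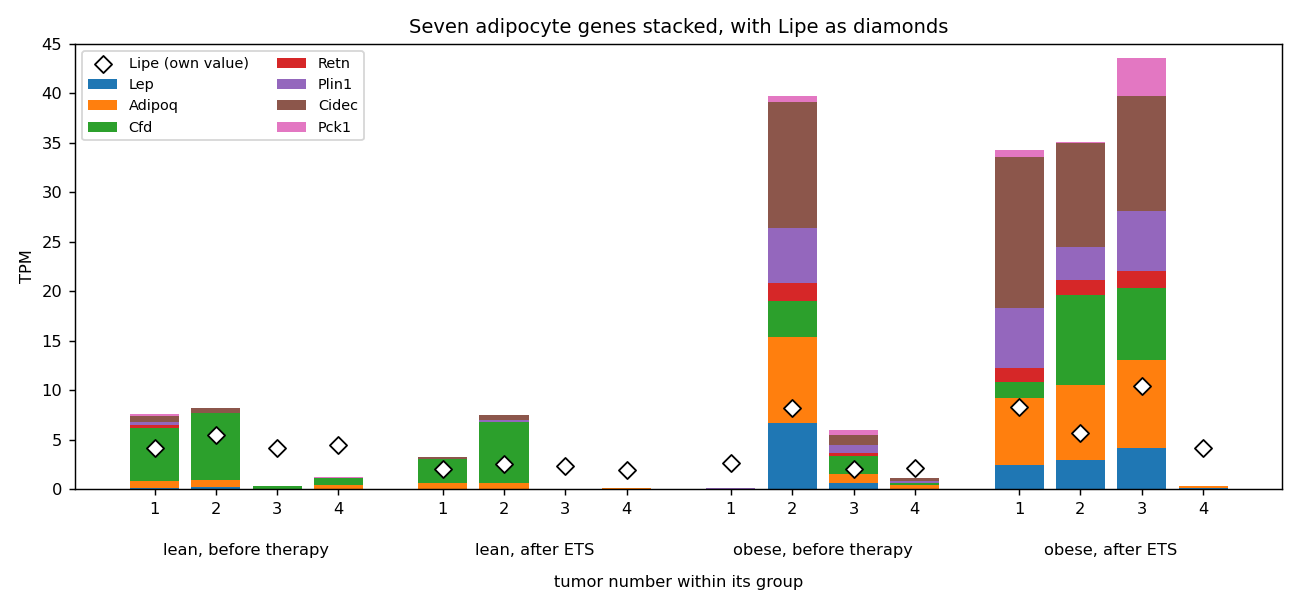
TPM, a level per transcript length scaled to the same total in each tumor (vertical axis), of the 7 genes stacked for each tumor (horizontal axis, by group), with Lipe as a white diamond at its own value. Obese tumor 2 before therapy and obese tumors 1 to 3 after ETS reach 34.3 to 43.6 TPM in sum, against at most 8.24 TPM in the other 12 tumors, while Lipe lies between 1.91 and 10.4 TPM in all 16.

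Levels between genes were compared in TPM, which divides by transcript length. In obese tumors after ETS, Cidec came at the top with 9.32 ± 6.52 TPM (SD, n = 4), followed by Lipe (7.14 ± 2.75), Adipoq (5.86 ± 3.87), Cfd (4.53 ± 4.39), Plin1 (3.88 ± 2.89), Lep (2.40 ± 1.71), Pck1 (1.19 ± 1.83) and Retn (1.14 ± 0.771). No pair of neighbours in that order differed by more than these SDs. In lean tumors before therapy, Lipe (4.57 ± 0.600 TPM) and Cfd (3.29 ± 3.29 TPM) stood at the top and overlapped, and Adipoq followed with 0.475 ± 0.330 TPM. Cidec was at 0.287 ± 0.339 TPM there, and Lep, Plin1, Retn and Pck1 were each below 0.1 TPM on average.

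Obese tumors were compared with lean tumors before therapy to ask what the host alone changed. None of the 8 genes passed edgeR's quasi-likelihood test at an adjusted p under 0.05, against 18.6% of the 23705 genes tested. At an unadjusted p under 0.05 there were 2, Lep and Plin1, against 31.6% of all genes. DESeq2 called 1 (Lep) of the 8 and 22.7% of all genes, the exact test on counts plus 1 called 2 (Lep and Plin1) and 21%, and limma-voom called 0 and 26.1%. Lep was 4.35 higher in obese tumors on the log2 scale (SE 1.57, adjusted p = 0.0769), Plin1 4.28 (SE 1.74, adjusted p = 0.105), Cidec 3.50 (SE 1.78, adjusted p = 0.192) and Adipoq 2.40 (SE 1.35, adjusted p = 0.241). Cfd differed by -1.17 (SE 1.61, adjusted p = 0.678) and Lipe by -0.22 (SE 0.36, adjusted p = 0.734). In no gene did the 4 obese tumors all lie above the 4 lean tumors, against 11.1% of all genes. Obese tumor 2 decided these values: without it, Lep was 1.64 higher (adjusted p = 0.412), Plin1 2.23, Cidec 0.76, Adipoq differed by -0.05 and Lipe by -0.84, the last with an adjusted p of 0.0317. Lean tumor 1 was the 1 lean tumor before therapy with Plin1 counts, and without it Plin1 passed (adjusted p = 0.0497), with the lean group at 0.

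In lean tumors, Lipe was lower in all 4 tumors after ETS than in all 4 before therapy, a separation that 16.5% of all genes showed in that direction. Its mean went from 6.74 ± 0.890 CPM to 4.20 ± 0.614 CPM (SD, n = 4), a log2 change of -0.68 (SE 0.36) that did not pass the test (adjusted p = 0.163). None of the 8 genes passed it, against 30.3% of all genes, and none had an unadjusted p under 0.05, against 41.4%. DESeq2 called 1 of them (Lep) and 33.7% of all genes, the exact test called 0 and 32.5%, and limma-voom 0 and 39%. Lep, Retn and Pck1 were at 0 in all lean tumors after ETS. Against a floor of 3 counts over that group, their pooled levels were at least 10.4-fold (Lep), 5.51-fold (Pck1) and 2.03-fold (Retn) lower than before therapy, with adjusted p-values of 0.161, 0.221 and 0.249. The 7 and 19 counts behind Retn and Pck1 before therapy came from 1 and 2 tumors.
Adipoq (-0.10, SE 1.37), Cidec (-0.13, SE 1.81) and Cfd (-0.23, SE 1.57) had log2 changes far smaller than their errors.

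In obese tumors, ETS was followed by higher Lipe, from 5.80 ± 4.08 CPM before therapy to 11.9 ± 4.13 CPM (SD, n = 4), a rise of 1.03 on the log2 scale (SE 0.36, adjusted p = 0.0450). Lipe was the 1 gene of the 8 that passed, against 26.2% of all genes, and the groups overlapped because obese tumor 2 before therapy held 11.9 CPM. No gene of the 8 had all 4 obese tumors after ETS above all 4 before therapy, which 13.1% of all genes showed. The log2 changes of the other 7 genes lay between 0.51 for Lep (SE 1.31, adjusted p = 0.830) and 2.13 for Pck1 (SE 1.50, adjusted p = 0.318). Those of Adipoq (1.39, SE 1.27), Plin1 (1.37, SE 1.44), Cidec (1.58, SE 1.59) and Cfd (1.78, SE 1.63) were near to their errors. Obese tumor 2 before therapy set these values as well: without it the log2 changes were 3.22 for Lep (adjusted p = 0.0963), 3.84 for Adipoq (adjusted p = 0.0547), 3.42 for Plin1 (adjusted p = 0.148), 4.32 for Cidec (adjusted p = 0.106) and 2.78 for Cfd (adjusted p = 0.308). That of Pck1 was 0.34 without obese tumor 3 after ETS. The call of Lipe was kept without obese tumor 2 before therapy (1.66, adjusted p = 0.000663) and without obese tumor 4 after ETS (1.23, adjusted p = 0.0206). It was lost when any other of the 16 tumors was left out (log2 change 0.84 to 1.09, adjusted p up to 0.128).

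Obese and lean tumors were then compared after ETS. Pooled over the 4 tumors of a group, Lep was at least 311-fold higher in obese than in lean tumors, Pck1 at least 126-fold and Retn at least 28.8-fold. Each bound is against the floor of 3 counts over the lean group and does not hold for each tumor. Obese tumor 4 held 8 counts of Lep and 0 of Retn. Without obese tumor 3 the bounds were 247-fold for Lep and 25.4-fold for Retn. Of the 388 Pck1 counts, 311 came from obese tumor 3, and without it the bound was 34.4-fold. Plin1 was 6.24 higher on the log2 scale (SE 1.91), Cidec 5.21 (SE 1.91) and Adipoq 3.89 (SE 1.43). Lean tumor 2 after ETS was the 1 tumor of its group with Plin1 counts, and without it the fitted value was 10.85, which then has no lean counts under it and is no bound. Leaving out 1 tumor gave 4.79 to 6.44 for Cidec and 3.48 to 4.34 for Adipoq. None of these 6 passed the test, with adjusted p-values of 0.0526 for Lep, 0.0753 for Pck1, 0.0886 for Plin1, 0.0910 for Retn, 0.142 for Adipoq and 0.143 for Cidec. Cfd differed by 0.85 (SE 1.58, adjusted p = 0.823), and by 2.33 without lean tumor 2 and 0.16 without obese tumor 2 after ETS. Lipe was 1.50 higher (SE 0.36, adjusted p = 0.0459) and was the 1 gene called, against 2.16% of all genes. At an unadjusted p under 0.05 there were 7 of 8 genes, all but Cfd, against 21.1% of all genes. Lep, Lipe and Pck1 were higher in all 4 obese tumors than in all 4 lean tumors, which 5.24% of all genes were. DESeq2 called 4 genes here (Lep, Lipe, Pck1 and Retn) and 9.17% of all genes, and the exact test 5, with Plin1 added, and 7%. Limma-voom called 1 of the 8, and 827 of the 23705 genes tested. The call of Lipe was kept without obese tumor 2 or 3 before therapy or obese tumor 2 after ETS, and lost without any other single tumor (log2 difference 1.35 to 1.69 over all 16, adjusted p up to 0.123). Lep was called as well without obese tumor 1 (adjusted p = 0.0487) or obese tumor 2 before therapy (adjusted p = 0.0308).

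The 2 effects of ETS were also compared with each other. For Lipe, the change in obese tumors minus that in lean tumors was 1.72 on the log2 scale (SE 0.51, adjusted p = 0.0382), from -0.68 in lean and 1.03 in obese tumors. Lipe was the 1 gene called of 8, against 12.4% of all genes. The call was kept when lean tumor 3 before therapy, lean tumor 2 after ETS, obese tumor 2 before therapy, or obese tumor 2 or 4 after ETS was left out, and lost for the other 11 (adjusted p up to 0.0782). Without obese tumor 2 before therapy the difference was 2.34, and Lep was called as well (adjusted p = 0.0406). Adipoq had a difference of 1.49 (SE 1.87, adjusted p = 0.673) and Plin1 of 1.96 (SE 2.48, adjusted p = 0.679), and neither passed. Without obese tumor 2 before therapy that of Adipoq was 3.94 (adjusted p = 0.161) and that of Plin1 rested on single tumors too, with -3.22 without lean tumor 1 before therapy and 6.57 without lean tumor 2 after ETS. The comparisons in lean and obese hosts share tumors with each other, so that their results are not independent.

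**Figure D3:**
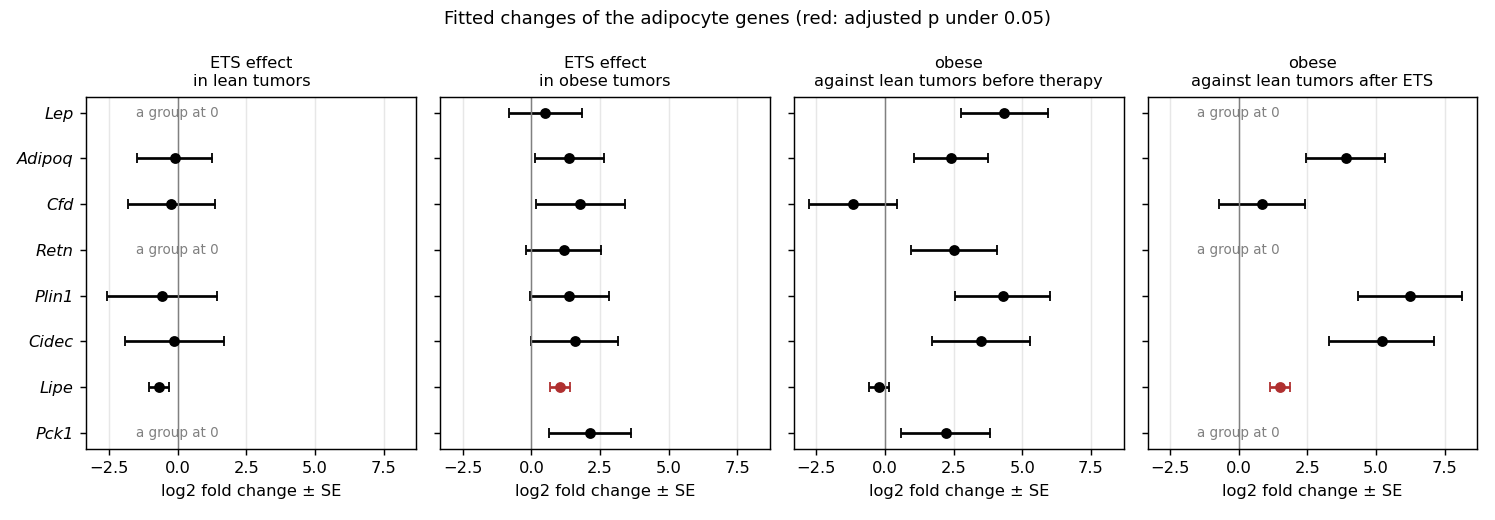
Log2 fold change with its standard error (horizontal axis) for each gene (vertical axis) in 4 comparisons, in red where the adjusted p was under 0.05. Lipe passed in obese tumors under ETS (1.03) and between hosts after ETS (1.50), and where a gene was at 0 in a whole group no fitted value is drawn.

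The spread between tumors of a group set these tests. The biological coefficient of variation in the fit was 0.361 for Lipe, against 0.331 for the common value over all genes. For the other 7 genes it was 1.28 for Adipoq, 1.29 for Lep, 1.62 for Retn, 1.66 for Pck1, 1.71 for Cfd, 1.94 for Plin1 and 1.99 for Cidec.

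Since a high tumor was high in most of these genes, each gene was also set against Adipoq within the same tumor. These 7 ratios were chosen after the values were seen, so that they are given as a description, with no test. Before therapy, Lep made up 36.4% (95% exact interval 22.4% to 52.2%) and 39.1% (25.1% to 54.6%) of the summed Lep and Adipoq counts in lean tumors 1 and 2, 0 of 2 counts in lean tumor 3 and 13.3% (1.66% to 40.5%) in lean tumor 4. After ETS it was 0 of 27 in lean tumor 1 and 0 of 25 in lean tumor 2, with upper limits of 12.8% and 13.7%, 0 of 6 in lean tumor 4, and lean tumor 3 had no counts of either gene. In obese tumors before therapy it was 6 of 6 counts in tumor 1, 66.9% (63.5% to 70.1%) in tumor 2, 64.4% (54.2% to 73.6%) in tumor 3 and 8 of 20 counts (19.1% to 64.0%) in tumor 4, the last close to lean tumor 2. Obese tumors 1 to 3 after ETS had 48.6%, 51.2% and 55.0%, and obese tumor 4 held 8 counts of each gene. Every obese tumor thus had a higher Lep share than every lean tumor with counts of the pair, but not always beyond the intervals. Before therapy, only the interval of obese tumor 2 lay above those of lean tumors 1 and 2, which reach 52.2% and 54.6%. The shares of obese tumors 1 and 2 after ETS lie below 54.6% too, but above the upper limits of lean tumors 1 and 2 after ETS. Intervals cover counting error only. The log2 ratio of Lep to Adipoq, with 0.5 added to each count, was higher in obese tumors by 2.79 before therapy and by 3.86 after ETS. In 5 of the 8 lean tumors, with 0 counts of Lep, the added 0.5 sets the ratio. It also does so in obese tumor 1 before therapy, with 6 counts of Lep and 0 of Adipoq, which raises the obese mean before therapy.

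The ratio of Cfd to Adipoq ran the other way in the tumors with most counts. Cfd made up 84.7% and 87.0% of the pair in lean tumors 1 and 2 before therapy, and 73.8% and 88.6% in lean tumors 1 and 2 after ETS. In the obese tumors with over 80 counts of the pair it was 24.0% and 59.1% before therapy, and 15.8%, 47.7% and 37.9% after ETS, all below those lean tumors. Of the tumors with fewer counts, lean tumors 3 and 4 before therapy had 75.0% and 60.6% and obese tumor 4 before therapy 33.3%, while lean tumor 4 and obese tumor 4 after ETS had 0 of 6 and 0 of 8. The mean log2 difference over both time points was -2.16 for Cfd, 2.90 for Plin1, 1.54 for Cidec, -1.80 for Lipe, 1.08 for Retn and 1.27 for Pck1. Plin1 was at 0 in lean tumor 2 before therapy and lean tumor 1 after ETS, which held 28 and 27 counts of Adipoq.

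**Figure D4:**
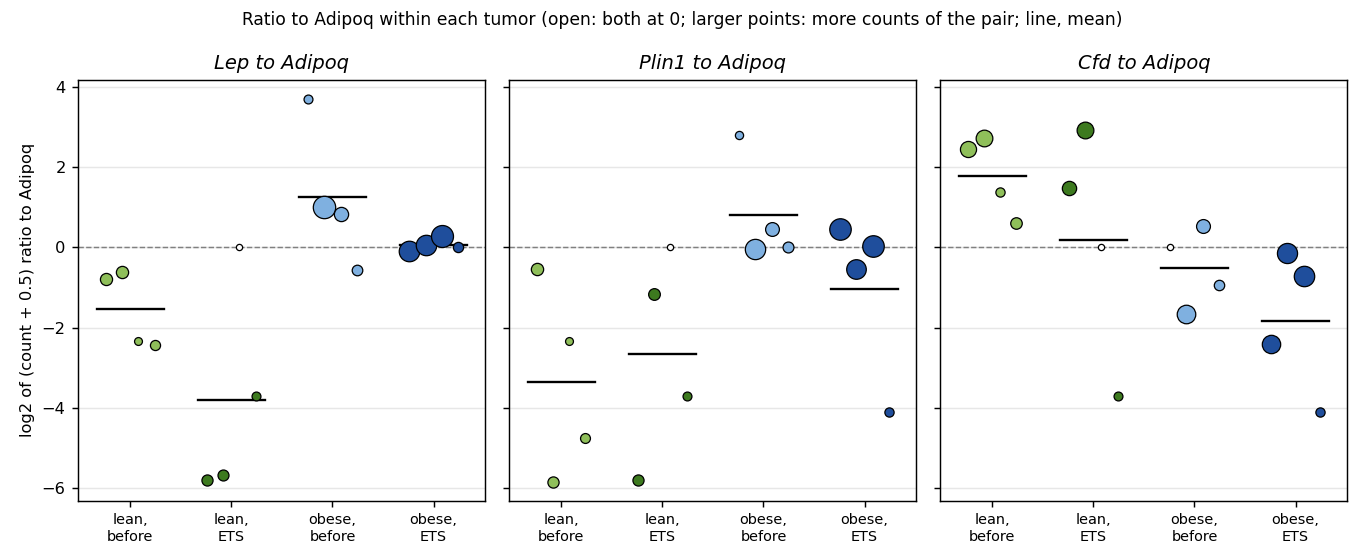
Log2 ratio of the counts of Lep, Plin1 and Cfd to those of Adipoq (vertical axis, 0.5 added to each count) in every tumor by group (horizontal axis), larger points standing for more counts of the pair, open points for 0 counts of both and lines for means. Lep to Adipoq has means of -1.54 and -3.79 in the lean groups and 1.25 and 0.07 in the obese groups before therapy and after ETS, and Cfd to Adipoq has 1.79 and 0.18 (lean) and -0.52 and -1.83 (obese).

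Receptors of these hormones were counted in every tumor. Lepr, the leptin receptor, was low, at 0.683 ± 0.149 CPM in lean and 0.372 ± 0.287 CPM in obese tumors before therapy and 0.575 ± 0.247 and 0.653 ± 0.360 CPM after ETS (SD, n = 4), and passed the test in no comparison. Adipor1, a receptor of adiponectin, stood at 168 ± 21.7 CPM in lean and 209 ± 10.1 CPM in obese tumors before therapy, a difference of 0.32 on the log2 scale (SE 0.09, adjusted p = 0.0176). It rose under ETS in lean tumors by 0.40 (SE 0.09, adjusted p = 0.00304). In TPM, its lean means were close, at 114 ± 8.40 and then 117 ± 5.64 (SD, n = 4). Adipor2, the other receptor, fell by 0.31 under ETS in obese tumors (SE 0.07, adjusted p = 0.00465), and from 62.9 ± 2.79 to 48.2 ± 4.31 in TPM. Its log2 change in lean tumors was -0.03 (adjusted p = 0.805), whereas its lean TPM fell without overlap, from 64.4 ± 3.79 to 49.1 ± 5.01. The changes of both receptors in lean tumors thus depended on the scale used, and the reason was not tested. Of the list of 7 receptor and signalling genes, 3 were called under ETS in lean tumors (30.3% of all genes), 3 in obese tumors (26.2%), 4 between hosts before therapy (18.6%) and 0 after ETS by edgeR, where 1 (Adipor2) had an unadjusted p under 0.05. Socs3, an inhibitor of cytokine and leptin signalling, fell by 1.05 under ETS in lean tumors and rose by 0.73 in obese tumors, and the difference of 1.78 passed (adjusted p = 0.00319). It also follows other cytokines.

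Of 32 other genes of white adipocytes, 11 passed in obese tumors under ETS, and all 11 rose. Of all genes, 26.2% passed in either direction, and 3337 of 23705 passed as higher. The median log2 change of the list was 0.83, against 0.08 over all genes tested. Between hosts after ETS 6 passed, against 2.16% of all genes in either direction, all higher in obese tumors, at a median of 1.55 against 0.03. In lean tumors under ETS 6 rose and 4 fell (30.3% of all genes passed), at a median of 0.03 against -0.05, and before therapy 3 were higher and 4 lower in obese tumors (18.6% of all genes passed), at 0.37 against -0.03. Outside the comparison after ETS these counts, taken in either direction, lie not far from the share of all genes, but those under ETS in obese tumors were all rises. Fabp4, a fatty acid carrier that macrophages and endothelial cells also make, was at 16.2 and 11.7 CPM on average in the lean groups before therapy and after ETS, and at 40.1 and 115 CPM in the obese groups. It rose by 1.52 under ETS in obese tumors (SE 0.49, adjusted p = 0.0332) and was 3.30 higher in obese than lean tumors after ETS (SE 0.53, adjusted p = 0.0117). Plin4, another droplet protein, was near 0 outside the high tumors and passed in no comparison, with 4.42 between hosts after ETS (SE 1.60, adjusted p = 0.137).

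Pparg and Cebpa are transcription factors that drive adipocyte formation. In lean tumors both fell under ETS, Pparg by a log2 change of -2.22 (SE 0.42, adjusted p = 0.00129) and Cebpa by a log2 change of -2.08 (SE 0.60, adjusted p = 0.0170). Before therapy both were lower in obese than in lean tumors, Pparg by a log2 difference of -1.81 and Cebpa of -2.27 (adjusted p = 0.00675 and 0.0164). In obese tumors both rose under ETS, by 1.26 and 1.98 (adjusted p = 0.0349 and 0.0250). Markers of other host cells moved mostly in the same directions. Of 15 myeloid genes, 10 fell under ETS in lean tumors (median log2 change -2.42), where 30.3% of all genes passed in either direction. Before therapy 11 were lower and 1 higher in obese tumors (median -3.29), where 18.6% of all genes passed. Of 9 fibroblast genes, 5 fell under ETS in lean tumors (median -1.57) and 2 were lower in obese tumors before therapy (median -1.82). Their part in these results was not tested. The genes of the list with the highest mean TPM, besides Fabp4, were Fasn, Gpd1, Mgll and Scd1, enzymes of fat synthesis and breakdown that many cells express. Gpd1 rose under ETS in lean (1.68) and obese tumors (1.39), and Mgll was lower in obese tumors before therapy (-2.52, adjusted p = 0.000666) and rose there by 1.77. Fasn and Scd1 passed in no comparison.

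Genes of brown adipocytes were scarce where they are specific. Ucp1, the uncoupling protein of brown fat, was at 0 in 13 tumors and had 9, 2 and 2 counts in obese tumors 1 to 3 after ETS. Cidea had 3 and 5 counts in obese tumors 2 and 4 after ETS and 0 elsewhere. Of the 8 brown adipocyte genes listed, 7 were tested, and 2 passed under ETS in lean tumors (30.3% of all genes), 3 in obese tumors (26.2%), 3 between hosts before therapy (18.6%) and 0 after ETS by edgeR, where 1 had an unadjusted p under 0.05. Those that passed were Cox7a1, Prdm16 and Dio2, which other cell types also express.

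The genes most alike in pattern were sought among 14760 genes with a mean of at least 0.5 CPM, by Pearson correlation of log2 CPM over the 16 tumors. Against the mean standardized level of Adipoq, Plin1 and Cidec, the order was Plin4 (0.96), Hp (0.89), Npr3 (0.85), Fabp4 (0.83), Cdo1 (0.83), Adcy5 (0.80), Cox10 (0.80) and Abcd2 (0.80). Against Lep it was Plin4 (0.89), Arxes2 (0.88), Fabp4 (0.88), Hp (0.87) and Npr3 (0.86). By Spearman correlation 4 of the 8 and 3 of the 5 were again among the nearest. The 4 high tumors held the highest levels of each of these genes but Cox10, and the points share libraries and scaling. Cox10 was at 53.2 to 60.5 CPM in the 4 high tumors, and at 59.5 and 55.1 CPM in lean tumors 1 and 2 after ETS. Hp, haptoglobin, had 111 CPM in obese tumor 2 before therapy and 173, 160 and 143 CPM in obese tumors 1 to 3 after ETS, and 0.993 to 46.4 CPM elsewhere, with the 46.4 CPM in obese tumor 4 after ETS.

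Marker genes of other host tissues were high in some tumors. Genes of skeletal muscle (14 in the list) summed to 604 CPM in obese tumor 2 after ETS, to 261 and 65.5 CPM in lean tumors 2 and 4 before therapy, and to 439 and 260 CPM in lean tumors 1 and 2 after ETS. They summed to 2.34 to 6.03 CPM in the other 11 tumors, where 6 to 9 of the 14 genes were at 0. Of the 4 tumors high in adipocyte genes, 3 were among these 11, at 4.02, 6.03 and 5.14 CPM of muscle genes. The muscle-rich lean tumors 2 and 4 before therapy held 4.01 and 0.671 CPM of the 7 adipocyte genes other than Lipe. The muscle-rich lean tumors 1 and 2 after ETS held 2.12 and 5.05 CPM of them. Among the lean tumors low in muscle genes, tumors 1 and 3 before therapy held 4.62 and 0.122 CPM. Tumors 3 and 4 after ETS held 0 and 0.107 CPM. A link between the lists was not tested. Keratinocyte genes (12 in the list) reached 179 CPM in obese tumor 2 after ETS and 23.3 CPM in lean tumor 2 before therapy, and 1.22 to 3.34 CPM in the others. Without the 5 tumors over 50 CPM of muscle genes, 2 tumors were left in each lean group. None of the 8 adipocyte genes was then called by edgeR in any comparison. Between hosts after ETS, all 8 had an unadjusted p under 0.05, against 15.7% of all genes. The lean tumors left after ETS were 3 and 4. They held 0 and 6 counts summed over the 7 genes other than Lipe, against 120 and 265 in the removed tumors 1 and 2. The p-values of these 7 genes in this fit thus rest on which lean tumors were left out. Lipe kept its direction there, with 1.08 under ETS in obese tumors (adjusted p = 0.121), 1.69 between hosts after ETS (adjusted p = 0.209) and 1.81 for the difference (adjusted p = 0.239), while no gene of all those tested passed between hosts after ETS.

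**Figure D5:**
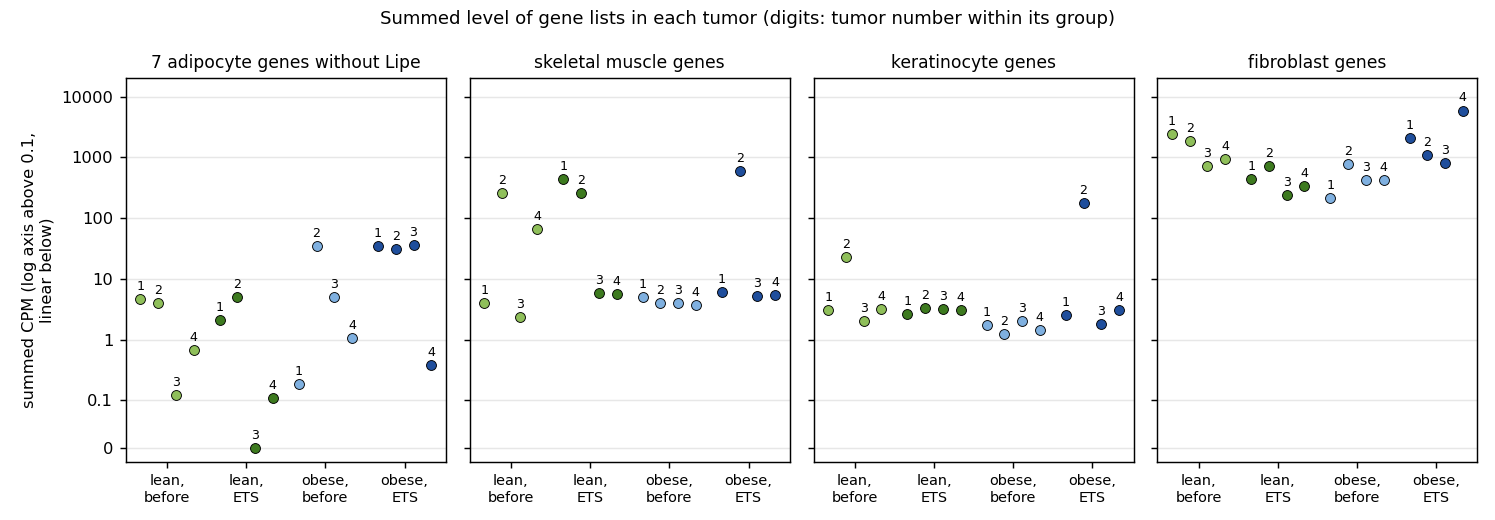
Summed CPM (vertical axis, logarithmic above 0.1 and linear below) of the 7 adipocyte genes other than Lipe and of lists of skeletal muscle, keratinocyte and fibroblast genes, with a point for each tumor, its number beside it, by group (horizontal axis). Obese tumor 2 after ETS is high in adipocyte (30.6), muscle (604) and keratinocyte genes (179), whereas obese tumors 1 and 3 after ETS are high in adipocyte genes alone of these 3.

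Fibroblast genes (9 in the list) summed to 801 to 5925 CPM in obese tumors after ETS and to 216 to 775 CPM in obese tumors before therapy. Of the 9, 8 passed the test as higher after ETS, where 26.2% of all genes passed in either direction. In lean tumors they went from 711 to 2474 CPM before therapy to 245 to 731 CPM after ETS. Their sum was highest in obese tumor 4 after ETS, which was the lowest of its group in each of the 8 adipocyte genes. Genes of adipocyte progenitors (8 in the list) summed to 144 CPM in that tumor and to 37.2 to 70.5 CPM in the other 3, and to 7.06 to 18.0 CPM in obese tumors before therapy. In lean tumors they summed to 42.2 to 185 CPM before therapy and 9.27 to 38.4 CPM after ETS. Myeloid genes summed to 64.3 to 268 CPM in obese tumors before therapy and to 362 to 1157 CPM after ETS, and in lean tumors to 459 to 1481 CPM and then 53.9 to 416 CPM. Endothelial genes summed to 76.0 to 123 CPM and to 127 to 348 CPM in the obese groups, and to 144 to 181 CPM and 111 to 147 CPM in the lean groups. The part of these lists in the results for Fabp4, Lipe, Pparg and Cebpa, which such cells also express, was not tested.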

How the data were processed

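RNA of 16 B16F10 tumors, 4 in each of 4 groups set by the sample labels, was analysed. The authors trimmed reads with Trimmomatic, aligned them to mm10 with HISAT2 2.1.0 and quantified genes with StringTie 2.1.3b. They deposited whole-number counts per gene, not normalized, with TPM and FPKM values of the same step. The 16 FPKM columns were not used. The TPM values deposited by the authors served for levels between genes and as an alternative. Strand use in counting is not given in the sources used here.

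The 8 genes, the lists and the tests were chosen with earlier results of these data known. Of 45777 genes, the 23705 with a summed count of at least 10 were tested. The study left out each gene that had 0 counts in 1 or more tumors, which would leave 1 of the 8 genes, so that this exclusion is an alternative here. Counts were scaled by TMM, and CPM are counts over the library size so scaled, times 1e6. All 16 tumors entered edgeR's quasi-likelihood test (edgeR 4.0.16, R 4.3.3) with a mean for each group, and p-values were adjusted by Benjamini-Hochberg over all tested genes and called under 0.05. Each standard error is the fold change on the log2 scale over the square root of F. The fit was tested on simulated counts with the same spread for all genes, which does not cover genes that vary as much as those other than Lipe. Where a group was at 0 in all tumors, folds were taken against 3 counts over the group. Shares have exact Clopper-Pearson intervals (scipy 1.17.1). Ratios of counts to Adipoq are described without a test. Nothing says whether tumors of a group came from separate experiments, so that p-values measure the spread between these tumors.

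Named genes are the 8 genes, the 5 other white adipocyte genes with the highest mean TPM, Fabp4, Plin4, Pparg, Cebpa, Ucp1, Cidea, Lepr, Adipor1, Adipor2 and the genes nearest in pattern. Socs3 was named after its values were seen. Coordinates and promoter sequences come from the RefSeq tables of GRCm38.p6, in which all 8 genes were found. Alternatives were DESeq2's size factors, total counts, DESeq2 1.42.0, edgeR's exact test on counts plus 1, limma-voom with sample weights and limma on log2 TPM (limma 3.58.1), other filters, a replicate block, only the groups compared, and leaving out each tumor. The fit without muscle-rich tumors and the ratio alternatives were chosen after seeing the data. Tumors of a group differed by far more than sampling noise.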

Additional observations from a re-analysis of the deposited data

Results flagged for a closer look

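Within the groups of 4 tumors, 29 gene and group combinations were checked for a tumor far from the others, by its gap to the nearest tumor over the range of the group. For normally distributed values, chance passes the limit used in about 1 of 20. Many levels here are near or at 0, so that this rate need not hold. Obese tumor 2 before therapy stood above its group in 5 of the 8 genes, with 10.6 CPM of Lep, 5.24 CPM of Adipoq, 5.10 CPM of Plin1, 10.7 CPM of Cidec and 11.9 CPM of Lipe. Obese tumor 4 after ETS stood below its group, with 0.139 CPM of Adipoq and 0 CPM of Retn. Lean tumor 1 before therapy stood above its group with 0.318 CPM of Plin1 and 0.117 CPM of Retn, and lean tumor 2 after ETS with 0.210 CPM of Plin1, where the other tumors of these groups were at 0. There the gap fills the whole range whatever the level, so that the check says nothing more. Genes of one cell type move together in a tumor, so that these 10 gaps are not independent.

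The effect of ETS on Lipe differed between hosts by 1.72 on the log2 scale (obese minus lean, tested as an interaction, adjusted p = 0.0382), from -0.68 in lean and 1.03 in obese tumors.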

How the results depend on the processing

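Lipe kept its direction in all 5 comparisons under every alternative run. The number of the 8 genes called under ETS in lean tumors was 0, and 1 with DESeq2, with limma on log2(TPM + 0.1) or with only the groups compared. In obese tumors it was 1, and 0 with total counts alone, limma on log2(TPM + 1), only the groups compared or without the muscle-rich tumors. Between hosts before therapy it was 0, and 1 with DESeq2 and 2 with the exact test. Between hosts after ETS it was 1, and 2 with filterByExpr, 4 with DESeq2, 5 with the exact test, 0 with only the groups compared and 0 without the muscle-rich tumors. For the difference of the effects it was 1, and 0 without the muscle-rich tumors. Leaving out each tumor gave 0 to 1, 0 to 1, 0 to 1, 0 to 2 and 0 to 2 in these 5 comparisons. The cause of these moves was not tested, beyond fewer tumors or genes in the fit.

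Tumors with the same number in different groups did not deviate together in every pair (correlations -0.133 to 0.551 over 24 pairs, 7 of 16 tumors nearest to their own number). Pairs with unlike numbers had correlations of -0.678 to 0.578. These values cannot decide whether the numbers mark pairs or batches, so that the main fit used no pairing. With the replicate number as a block, 2 genes (Lep and Lipe) were called between hosts after ETS, and the other counts were as before.

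Some changes turned sign, and that of Retn went to 0. Under ETS in lean tumors, leaving out 1 tumor at a time gave -0.55 to 0.31 for Adipoq, -5.19 to 4.60 for Plin1, -1.36 to 0.83 for Cidec, -1.72 to 0.33 for Cfd and -4.20 to 0 for Retn, and limma-voom gave 0.091 for Plin1. The ends for Plin1 come from fits with a lean group at 0 counts of it, so that they measure no fold. Between hosts before therapy it gave -0.048 to 2.81 for Adipoq, the lowest without obese tumor 2. For the difference of the effects it gave -3.22 to 6.57 for Plin1, the lowest without lean tumor 1 before therapy, again with a lean group at 0.

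Over all genes, 512 were called between hosts after ETS, 904 with genes at 0 in any tumor excluded, 814 with filterByExpr, 2174 with DESeq2, 1660 with the exact test, 827 with limma-voom, 960 with the block, 15 with only the groups compared, 0 without the muscle-rich tumors and 33 to 890 when 1 tumor was left out. Without the muscle-rich tumors, 1485 genes were called under ETS in lean tumors (7192 otherwise), 1715 between hosts before therapy (4419) and 1118 for the difference (2941). The ratio of Lep to Adipoq was 2.74 higher in obese tumors with 1 count added in place of 0.5, against 3.32. The exact test and the fit of only the groups compared give no value for the difference of the effects. Counts of Lep, Plin1, Retn and Pck1 were under 20 in every lean tumor, which limits what a change there can show.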
